A study of Homo sapiens with 6 samples.

Results

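The difference between A549 cultures with and without doxycycline (DOX) was described in a line whose inducible hairpin has no intended target. A549 is a human lung adenocarcinoma cell line. Members were all genes measured in the line with the non-targeting hairpin (shNTC): a gene was represented by the brightest probe set that the annotation gives to it alone, and was kept if its mean log2 intensity over the 6 arrays was at least 6, an intensity of about 63. Of 19775 genes, 12569 were kept and 7206 were too dim. The difference reported for each gene is log2(intensity + 1) in shNTC with DOX minus that in shNTC without it, so that 1 is a 2-fold difference. There was 1 array per line and state, so these are differences between 2 arrays: there is no replicate error, no test and no p-value, and a size alone does not tell a DOX response from variation between cultures or hybridisations.

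The series held 3 stable A549 lines made with lentiviruses, each with a hairpin under tetracycline control: shNTC and 2 hairpins against CNOT3, a subunit of the CCR4-NOT complex that shortens mRNA poly(A) tails (shCNOT3-1 and shCNOT3-2). Each line was grown with DOX at 1 ug/ml for 72 h and without it. All 6 cultures therefore carried an integrated inducible vector, and DOX in shNTC both exposes the cells to the drug and switches on a hairpin. These cannot be told apart here, and the parental line without vector is not analysed here. The labels do not say whether a line was 1 clone.

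Doxycycline is a tetracycline antibiotic. It is used to switch on genes and hairpins in mammalian cells through a bacterial repressor or transactivator. Because mitochondrial ribosomes descend from bacterial ones, tetracyclines can slow protein synthesis inside mitochondria, and cells can answer with the ATF4 programme of amino acid synthesis and transport genes. The drug also binds metal ions and inhibits matrix metalloproteinases. Expressed hairpins use the cell's own small RNA machinery, in which DICER1 cuts the hairpin and the AGO proteins hold the guide strand. A non-targeting hairpin with DOX is the usual control for all of this.

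All 6 deposited arrays had the same trimmed mean, 500.1, and medians over all probe sets of 64.9 to 72.8. The actin 3'/5' signal ratio, which falls as RNA is better preserved, was 1.58 in shNTC without DOX and 1.47 with it, and 1.33 to 1.45 on the other 4 arrays. The GAPDH ratio was 0.966 to 1.09. The part of RNA quality in the results was not tested. The keratins KRT18, KRT8 and KRT7 read between 16126 and 52581 on all arrays, and CDH1, the epithelial cadherin, between 4296 and 7004. These epithelial markers were thus present. Others were dimmer: KRT19 read 462 to 1361 and EPCAM 132 to 372, and ESRP1 was too dim to be kept. Alveolar type 2 markers were low apart from LPCAT1 and ABCA3, with the surfactant gene SFTPC at 40.7 to 221. Of the markers of other cell types, 1 of 3 leukocyte genes, 1 of 6 fibroblast genes and 1 of 4 endothelial genes were kept. Their summed intensities were 272 to 308 (leukocyte), 527 to 650 (fibroblast) and 271 to 413 (endothelial) in the 2 shNTC arrays, lower with DOX for each list. In bulk RNA, fewer expressing cells and less RNA per cell cannot be told apart. The hairpin target was checked first: in shNTC, CNOT3 read 178 without DOX and 166 with it. The readings were 227 and 81.9 for shCNOT3-1, and 228 and 46.9 for shCNOT3-2. The difference was -0.10 in shNTC against -1.46 and -2.26 in the targeting lines. A second, dimmer CNOT3 probe set read -1.43 in shNTC, so the probe sets disagreed there.

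In shNTC, 221 genes were at least 2-fold higher with DOX (1.76%) and 266 at least 2-fold lower (2.12%), together 3.87% of the genes kept. In shCNOT3-1 the share was 6.78%, with 3.39% higher and 3.39% lower, and in shCNOT3-2 it was 6.37%, with 3.53% higher and 2.84% lower. Lines that had not seen DOX also differed from each other: 2.78% of genes were 2-fold apart between shCNOT3-1 and shNTC, 3.09% between shCNOT3-2 and shNTC, and 2.88% between the 2 shCNOT3 lines. These comparisons share arrays, and they mix the difference between lines with that between arrays. The SD of the difference over genes was 0.46 in shNTC, against 0.55 in both targeting lines, and its median was -0.01, with 48.8% of genes higher by any size, against 54.6% in shCNOT3-1 and 51.8% in shCNOT3-2.

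Most of the large differences in shNTC were in dim genes. At a mean log2 of 6 to 7, 15.7% of genes were 2-fold different, and the share was 5.65% at 7 to 8, 1.77% at 8 to 9 and 0.453% at 11 to 12. In both targeting lines the share also fell with brightness, from 18.3% and 19.1% in the dimmest bin to 3.17% and 2.20% at 11 to 12. In that bright bin the share in shNTC was smaller than in either targeting line.

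**Figure D1:**
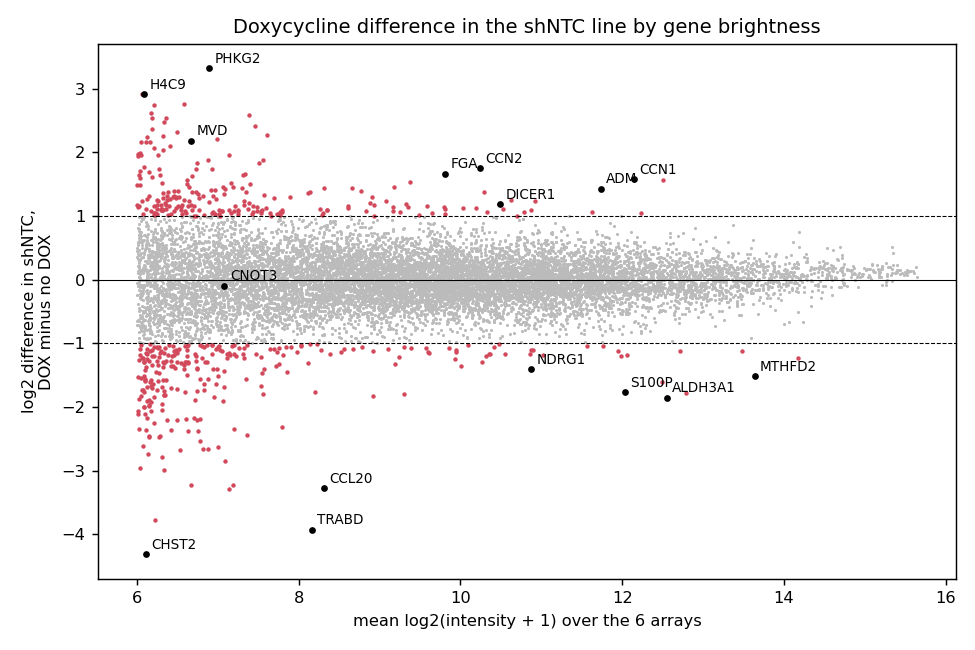
Difference between shNTC with and without DOX (log2, y axis) against mean log2 intensity over the 6 arrays (x axis), 1 point per gene. Genes at least 2-fold different are red, dashed lines mark 2-fold, and black points are genes named in the text. The spread narrows from left to right, and few genes to the right of 10 lie outside the dashed lines.

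**Figure D2:**
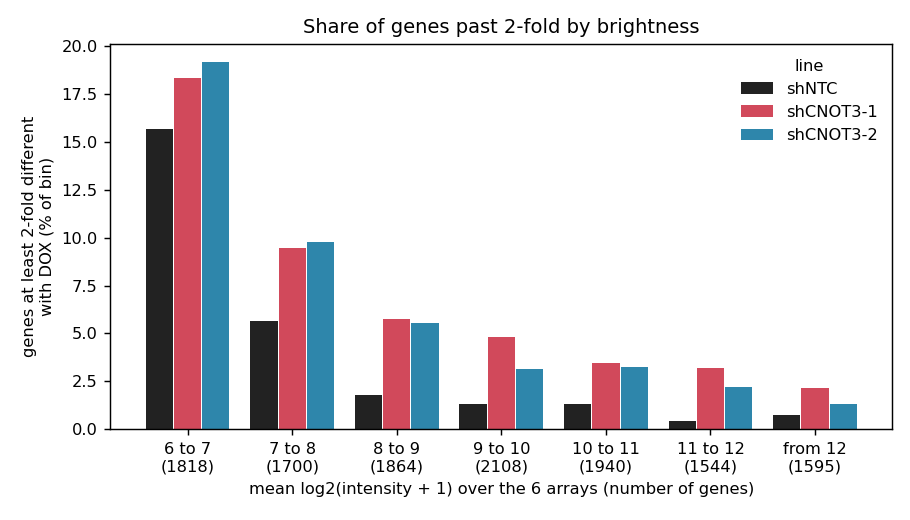
Percentage of genes at least 2-fold different with DOX (y axis) in bins of mean log2 intensity (x axis, with the number of genes), 1 bar per line. In every bin the shNTC bar is the lowest of the 3, and all 3 lines are highest in the dimmest bin.

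The ends of the ranking were made up of such genes. The 12 genes with the highest differences all had shNTC without DOX as the lowest of the 6 arrays, and all read under 500 on every array. PHKG2, the catalytic subunit of liver and testis phosphorylase kinase, read 14.3 in shNTC without DOX and 152 with it, a difference of 3.32, while the other 4 arrays read 142 to 284. The array without DOX was thus the one that stood apart, and 2 dimmer PHKG2 probe sets differed by 0.20 and -0.09. ZNF579, a zinc finger gene, read 45.4 without DOX, 247 with it and 209 to 235 on the other 4 arrays, the same picture. H4C9 (a histone H4 gene, 2.92), TNFSF13 (the B cell cytokine APRIL, 2.91), RASAL1 (a RAS GTPase activator, 2.77), SLC37A1 (2.74), PPP4R1L (2.62), ADAM33 (2.59), LOC100128079 (2.54), PTK6 (a tyrosine kinase of epithelia, 2.54), NAB2 (an EGR corepressor, 2.47) and TTLL9 (2.37) made up the rest. Apart from ADAM33, none of these 12 was 2-fold higher in a targeting line.

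At the other end, the 12 lowest genes all had shNTC with DOX as the lowest of the 6 arrays. CHST2, a sulfotransferase, read 109 without DOX and 4.53 with it (-4.31), and 79.6 to 137 on the other 4 arrays. TRABD read 484 and 30.9 (-3.93), but its 2 other probe sets differed by -0.17 and -0.18. CCL20, the chemokine that attracts CCR6-bearing cells, read 189 without DOX and 18.7 with it (-3.27). In the targeting lines CCL20 went the other way, from 246 to 1225 and from 192 to 4809. HAAO (-3.77), DNAH6 (-3.28), TCEA2 (-3.22), ANKZF1 (-3.22), ACAP3 (-2.99), NTN3 (-2.96), CD82 (a tetraspanin, -2.85), PDLIM4 (-2.79) and MEGF6 (-2.73) were the others, and 10 of the 12 read under 500 on every array.

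Which of the 2 arrays stood apart was counted for all 2-fold genes. Among the 221 higher genes, the DOX array alone lay outside the range of the other 5 arrays in 71, the array without DOX alone in 85, both in 47 and neither in 18. Among the 266 lower genes the counts were 146, 28, 75 and 17. For bright genes, those reaching 500 in the brighter shNTC array, the DOX array stood apart more often. There were 7619 such genes, of which 47 were 2-fold higher and 45 lower (1.21%). The DOX array alone lay outside in 32 of the 47 (68.1%) and 30 of the 45 (66.7%), and the array without DOX alone in 6 and 2. A 2-fold higher gene reaches 500 through its DOX array, so the filter itself favours that array among the higher genes. Over the same bright genes the targeting lines were alike. Their own DOX array alone lay outside in 60.0% of higher and 76.3% of lower genes in shCNOT3-1, and in 54.7% and 65.0% in shCNOT3-2.

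Other probe sets of the same gene that passed the filter gave a second reading of the same 2 arrays. For genes 2-fold higher in shNTC, 65 of 79 other probe sets (82.3%) were higher too, with a median of 0.60 against 1.12 for those used. For genes 2-fold lower, 53 of 88 (60.2%) were lower, with a median of -0.18 against -1.18, and 6 were at least 2-fold higher. In the targeting lines 78.8% to 86.5% had the direction of the probe set used. By count, the lower genes in shNTC were matched by their other probe sets less often than the higher ones. A probe set shares its hybridisation with the others of its gene, so this is no replicate of the culture.

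The genes below are the bright ones with at least 2 probe sets past the filter, all of which differed in the same direction, ranked by the smallest of them. Dimmer probe sets were left out, and in SYTL2, CADM1, COL12A1, RAB22A and COMMD10 at least 1 of those differed the other way. Of 4576 bright genes with at least 2 probe sets past the filter, all of these were higher in 1156 and lower in 1045, and at least 2-fold higher in 6 and lower in 2.

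CCN1, a secreted matricellular protein and a target of the YAP and TEAD transcription factors, headed the higher end. It read 2758 in shNTC without DOX and 8222 with it, 2823 and 5281 in shCNOT3-1, and 2670 and 9536 in shCNOT3-2. All 3 arrays with DOX were above all 3 without it, and the second CCN1 probe set differed by 1.85, 0.42 and 2.13 in the 3 lines. SYTL2, an effector of RAB27 in vesicle transport, showed the same order, with 387, 403 and 360 without DOX and 913, 673 and 712 with it. The share of all genes with this order of arrays is not given here, so it has no baseline for these or later genes. COL12A1, a fibril-associated collagen, read 673 and 1251 in shNTC and 701 to 873 elsewhere.

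The fibrinogen chains were highest in shNTC with DOX. FGA read 1175 without DOX and 3726 with it, FGB 1178 and 3411, and FGG, which has 1 probe set, 1013 and 2246. The targeting lines went down: FGA from 957 to 573 and from 961 to 227, FGB from 641 to 261 and from 713 to 180, FGG from 589 to 261 and from 692 to 150. For all 3 chains both shNTC arrays were above all 4 arrays of the targeting lines, so that shNTC was the highest line without DOX too. Fibrinogen is the soluble precursor of the fibrin clot and is made mainly in the liver, and its 3 genes lie side by side.

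The remaining higher genes of this kind had shNTC with DOX as the highest of the 6 arrays. GXYLT1, a xylosyltransferase, read 867 and 1915 (1.14). CADM1, a cell adhesion molecule, read 1079 and 2352 (1.12), and 766 to 937 on the other arrays. CCDC80 read 467 and 934 (1.00). TGFBR3 (betaglycan, the co-receptor for TGF-beta) read 716 and 1551 (1.11), PDGFC (a PDGF receptor ligand) 1284 and 2550 (0.99), CDK6 (the G1 kinase) 2374 and 4739 (1.00) and UGCG (glucosylceramide synthase) 1134 and 2210 (0.96). In the 2 targeting lines these 7 genes differed by -1.14 to 0.63, without a common direction.

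Among the 12 lower genes shNTC with DOX was the lowest array in 11. MTHFD2, the mitochondrial folate enzyme, was the brightest: 14458 without DOX and 5046 with it (-1.52), against 12920 and 16622 in shCNOT3-1 and 15330 and 17717 in shCNOT3-2. Its second probe set differed by -0.83 in shNTC and 0.57 and 0.05 in the targeting lines. KDM3B, a histone H3K9 demethylase, read 2222 and 1029 (-1.11), and RAB22A, an endosomal GTPase, 2091 and 932 (-1.16). All their probe sets past the filter were at least 2-fold lower. RELA, the p65 subunit of NF-kB, read 1248 and 662 (-0.91), with 1029 to 1298 on the other 4 arrays and -0.90 at its second probe set.

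SCLY (selenocysteine lyase, -1.22), TAF11 (a TFIID subunit, -1.17), WRAP73 (-0.89), COMMD10 (-0.88), PEX3 (needed to form peroxisomes, -0.83), TTLL12 (-0.81), OCRL (an inositol phosphatase, -0.72) and VCF1 (-0.70) completed the lower end. VCF1 was the exception to the position of the DOX array, with shCNOT3-1 with DOX below it. TAF11 was lower with DOX in all 3 lines (-0.26 and -0.91 in the others).

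**Figure D3:**
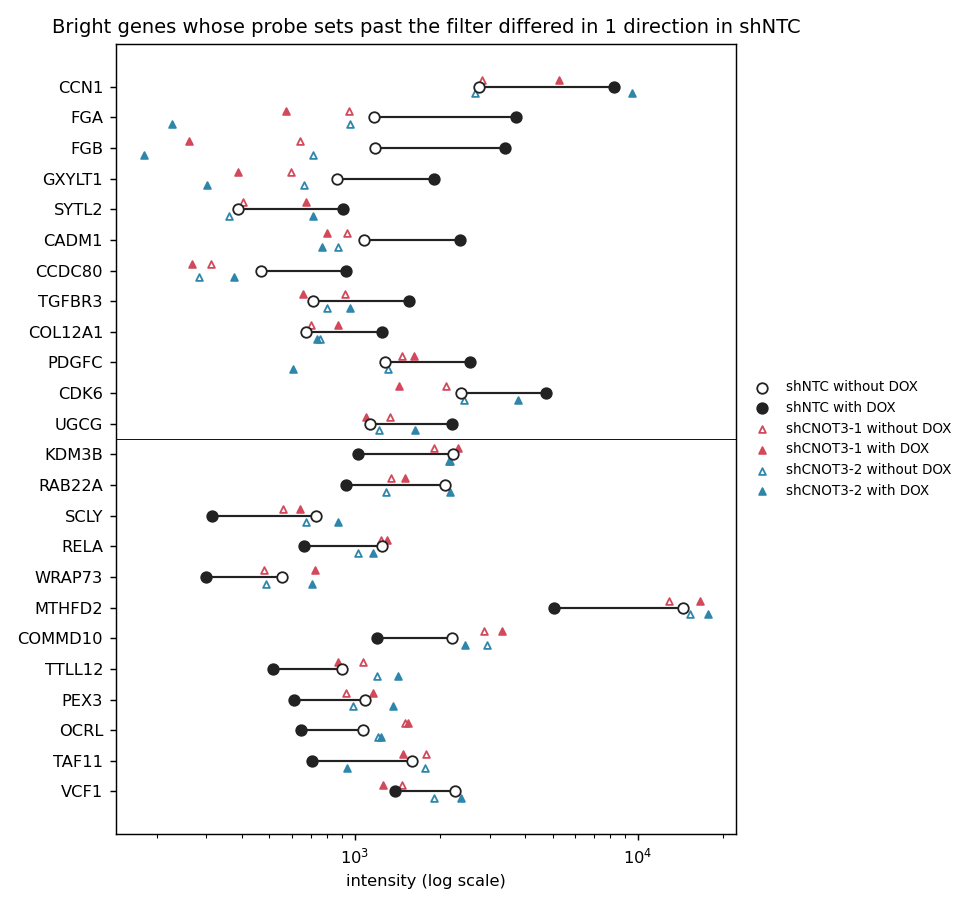
Intensity on a log axis of the 24 bright genes whose probe sets past the filter differed in 1 direction in shNTC, higher genes above the line and lower genes below it. Circles joined by a bar are the shNTC arrays and triangles are the 4 other arrays. For most genes the filled circle (DOX) lies apart from the other 5 points, and the filled triangles do not follow it, CCN1 and SYTL2 being exceptions.

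Among the 3139 genes with a mean log2 of at least 11, 19 were 2-fold different in shNTC: 5 higher and 14 lower. They were singled out after their values were seen. The DOX array was the lowest of the 6 for all 14 lower genes. ALDH3A1, an aldehyde dehydrogenase abundant in A549, read 7827 without DOX and 2163 with it (-1.86), against 5833 to 8304 on the other 4 arrays. S100P, a calcium-binding protein, read 4873 and 1432 (-1.77), against 4527 to 6590. CAPZA1, the actin capping subunit, read 10325 and 3013 (-1.78), although a dim second probe set differed by 1.09. UHMK1, a kinase, differed by -1.61, and its 3 other probe sets by -0.60, -0.83 and -1.07.

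For ASPH (-1.23), 5 of 6 other bright probe sets did not reach -0.5 and 1 differed by 1.32, and for PDZD8 (-1.18) the other 3 lay between -0.26 and -0.01. On the higher side ADM, the peptide adrenomedullin, read 2704 without DOX and 7287 with it (1.43). In the targeting lines it read 3844 and 1742, and 2872 and 4126, so the DOX array of shNTC was the highest of the 6. RARS1 (arginyl-tRNA synthetase, 1.57) read 2757 without DOX and 8158 with it, but also 2794 in shCNOT3-2 with DOX and 6576 to 9822 on the other 3 arrays, so that its values fell into a low and a high set that crossed the states. HADHA (1.05) and SDF4 (1.07) had other probe sets at 0.22 to 0.42.

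All 3 lines received the drug, and each has its own 2 arrays, although the targeting lines also lose CNOT3 with DOX. In all 3 lines 8 genes were at least 2-fold higher (0.0636%) and 2 at least 2-fold lower (0.0159%). Of any size, 15.7% of genes were higher in all 3 lines and 13.4% lower. All 8 higher genes read under 500 on every array. MVD, the mevalonate decarboxylase of cholesterol synthesis, read 50.9 without DOX and 234 with it in shNTC. The values were 42.2 and 204 for shCNOT3-1, and 67.6 and 151 for shCNOT3-2. Its 3 arrays with DOX were all above its 3 without. TNK2, a tyrosine kinase, read 40.3, 35.7 and 42.9 without DOX and 99.8, 142 and 267 with it, again without overlap. Genes picked for a difference in all 3 lines are favoured to show such an order. OR13C4 (an olfactory receptor, 1.15 in shNTC), DISP2 (2.32), SDC3 (a syndecan, 1.14), TMEM198 (1.64), EBI3 (a cytokine subunit, 1.40) and CD22 (a B cell lectin, 1.17) were the rest.

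On the lower side LINC02593 (-1.61, -2.55 and -1.52) and CCDC126 (-1.06, -1.03 and -1.23) passed 2-fold in all 3 lines. The brightest of the 8 genes ranked lowest by the smallest of the 3 differences was SFT2D2, a membrane protein of vesicle traffic. It read 4590, 5362 and 5673 without DOX and 2339, 2600 and 1988 with it, and the states did not overlap, an order that the ranking favours. Its second, dimmer probe set differed by -0.33, 0.02 and -0.41. KRT4, an epithelial keratin, read 976, 672 and 833 without DOX and 522, 84.9 and 345 with it. EML5, CD5 (a lymphocyte receptor), PIP4P2 and PCDH12 (a protocadherin) completed the 8, with -0.87, -1.42, -0.97 and -1.85 in shNTC.

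In shNTC 52 of the 221 higher genes and 86 of the 266 lower genes differed by less than 0.5 in size in both targeting lines. MTHFD2, ZNF579 and KDM3B were among them. Sizes under 0.5 were common over all genes, with quartiles of -0.25 and 0.33 in shCNOT3-1 and -0.27 and 0.31 in shCNOT3-2. The share of all genes under 0.5 in both lines was not counted, so the 52 and 86 have no baseline.

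Gene groups were described next, each by its median difference in shNTC beside -0.01 for all genes, and by its counts. Over all genes, 48.8% were higher by any size. With the brightest probe set per gene, the YAP and TGF-beta genes had the highest medians. With probe sets averaged the TGF-beta median was lower, at 0.27. It then lay below matrix metalloproteinases (0.37), fatty acid synthesis (0.35) and liver-type proteins (0.33), so the order depended on the probe set choice. The background above names mitochondrial and amino acid genes for tetracyclines, but the part of the drug in their values was not tested.

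**Figure D4:**
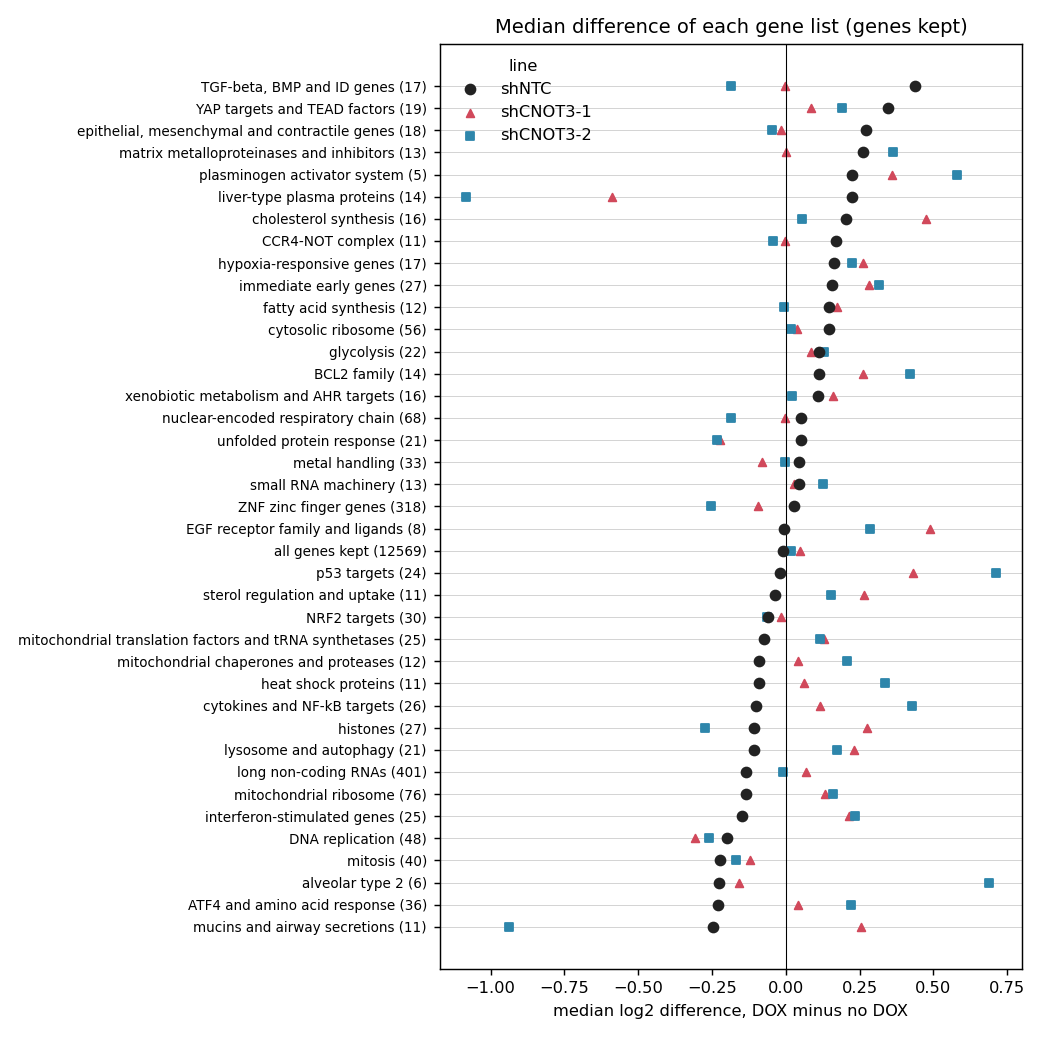
Median difference with DOX (log2, x axis) of each gene list with at least 5 kept genes, sorted by the value in shNTC, with the number of genes in brackets. Black circles are shNTC, and red triangles and blue squares the targeting lines. The shNTC medians lie between -0.25 and 0.44, and in liver-type plasma proteins the 3 lines are furthest apart.

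YAP and its partner WWTR1 (TAZ) are coactivators that bind TEAD factors, and the Hippo kinases, among them LATS2, hold them in the cytoplasm. Of 19 genes kept, 13 were higher in shNTC and 6 lower, with a median of 0.35, against 0.09 in shCNOT3-1 and 0.19 in shCNOT3-2. Targets led the list. CCN2, connective tissue growth factor, read 1136 without DOX and 3826 with it (1.75). The targeting lines read 923 and 478 (shCNOT3-1) and 867 and 1870 (shCNOT3-2), so that CCN2, unlike CCN1, did not have 1 direction in the 3 lines. PTPN14, a phosphatase that binds YAP, read 1404 and 2812 (1.00), with its other probe sets at 0.44 to 0.53. CCN1, CCN2 and PTPN14 were the 3 members past 2-fold.

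Smaller positive differences were read for TGFB2 (0.75, and 1.04 and 1.10 at its other bright probe sets), the receptor kinase AXL (0.59, with -1.72 at a second probe set), NT5E (0.58) and ANKRD1 (0.53, at 80.9 and 117). WWTR1 read 9672 and 12284 (0.35) and YAP1 3144 and 3529 (0.17). TEAD1 to TEAD4 lay between -0.22 and 0.19. F3, the tissue factor gene, was the lowest member (-0.75) and was higher in both targeting lines (1.54 and 0.97). DOX in shNTC gave the highest of the 6 arrays for 9 of the 19 genes, against 20.8% of all genes.

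The promoter of CCN2 is shown because it is the member with the largest difference, and its capitals mark matches to GGAATG, the core letters of the TEAD motif. Both strands of the 250 bases before the start were searched, in RefSeq promoters of build GRCh38.p14. CCN2 had 3 matches. At least 1 match was present in 11.9% of 35116 promoters and at least 3 in 0.0826%. ANKRD1 had 2 and PTPN14 had 1, while AXL and AMOTL2 each had none at 1 start and 1 at another. The promoter set used had no entry for CCN1, so CCN1 was not searched.
CCN2, chr6:131951373-131951622, minus strand: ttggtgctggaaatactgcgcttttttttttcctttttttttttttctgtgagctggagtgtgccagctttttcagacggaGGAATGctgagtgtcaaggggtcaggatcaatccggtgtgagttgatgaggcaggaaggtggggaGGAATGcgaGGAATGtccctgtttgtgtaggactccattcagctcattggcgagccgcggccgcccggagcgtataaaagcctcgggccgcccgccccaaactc

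TGF-beta and BMP ligands act through receptor kinases on SMAD factors, which switch on the ID genes and their own inhibitors. Here 15 of 17 genes were higher in shNTC (88.2%, against 48.8% of all genes), with a median of 0.44, and -0.00 and -0.19 in the targeting lines. Only NOG was past 2-fold. The direction depended on the probe set in some members. With probe sets averaged, TGFB1 (-0.04) and SKIL (-0.81) were lower and SMAD6 (0.55) was higher. Among ligands, TGFB1 read 298 and 527 (0.82), BMP2 125 and 193 (0.62), and BMP4 832 and 863 (0.05). The receptor TGFBR2 read 7142 and 10652 (0.58), although its second probe set differed by -0.31, while TGFBR1 differed by 0.05.

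Among inhibitors, BAMBI, a decoy receptor, read 1327 and 2461 (0.89), and went the other way in shCNOT3-1 (-0.60) and shCNOT3-2 (-1.19). NOG, which binds BMPs, read 53.2 and 167 (1.64), SMAD7 331 and 507 (0.61) and FST (follistatin) 524 and 728 (0.47). SMAD6 was near no difference at -0.08. Of the targets, TGFBI, an abundant matrix protein, read 17146 and 24419 (0.51), while both targeting lines differed by less than 0.05 in size. ID2 and ID3 differed by 0.42 and 0.28, ID1 by 0.00 and ID4 by -0.50. With DOX, shNTC was the highest of the 6 arrays for 9 of the 17 genes (52.9%, against 20.8% of all genes).

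Matrix and contractile genes were mixed. FN1, fibronectin, read 2917 and 5190 (0.83), with 1567 to 2671 on the other 4 arrays, and 0.19 to 1.24 at its other bright probe sets. TPM1, a tropomyosin, read 15107 and 22648. TAGLN read 224 and 42.4 (-2.38), but its other probe sets differed by 1.40 and 0.04, and VIM read 21266 and 24441. Over 18 epithelial, mesenchymal and contractile genes the median was 0.27, with 14 higher, and 0.16 with 16 added before log2 or with no filter. By role, the median was 0.37 for 9 epithelial genes, 0.01 for 5 mesenchymal genes and 0.23 for 4 contractile genes. Fibroblast markers summed to 650 without DOX and 527 with it in shNTC. Of these 6 genes, COL1A1 read 477 and 350, and the other 5 were too dim to be kept, with COL1A2 (5.36 and 50.3) and PDGFRB higher with DOX and COL3A1, DCN and LUM lower. Their part in these values was not tested.

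Liver-type plasma proteins are made by A549 at low to moderate levels together with the liver and foregut factors FOXA1 and FOXA2. Of 14 genes kept, 11 were higher in shNTC, with a median of 0.22, against -0.59 and -1.08 in the targeting lines. The fibrinogen chains were the 3 members past 2-fold higher. APOH read 2533 and 3158 (0.32) in shNTC, and -1.12 and -1.61 in the targeting lines. FOXA2 differed by 0.20 and FOXA1 by 0.06. The 3 lower members were AMBP (150 and 53.5), complement C3 (1192 and 603) and APOE (301 and 208).

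The fibrinogen promoters are shown because the chains had 1 direction in each line, with capitals at matches to GTTAAT, part of the HNF1 motif, on either strand. FGA and FGB had 1 match each and FGG had none, against 6.23% of promoters with at least 1. Both matches are on the strand opposite to the one printed and so appear as ATTAAC. RefSeq gives FGB a pair of starts, and the first is printed.
FGA, chr4:154590743-154590992, minus strand: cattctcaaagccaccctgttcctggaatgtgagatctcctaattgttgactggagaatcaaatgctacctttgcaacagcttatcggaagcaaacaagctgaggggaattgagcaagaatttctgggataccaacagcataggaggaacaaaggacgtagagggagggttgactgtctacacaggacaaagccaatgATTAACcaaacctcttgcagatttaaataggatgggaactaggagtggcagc
FGB, chr4:154562730-154562979, plus strand: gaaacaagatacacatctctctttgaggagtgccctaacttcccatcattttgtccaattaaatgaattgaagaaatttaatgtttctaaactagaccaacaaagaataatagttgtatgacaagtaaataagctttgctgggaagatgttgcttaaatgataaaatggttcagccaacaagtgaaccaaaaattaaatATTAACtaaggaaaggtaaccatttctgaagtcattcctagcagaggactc
FGG, chr4:154612657-154612906, minus strand: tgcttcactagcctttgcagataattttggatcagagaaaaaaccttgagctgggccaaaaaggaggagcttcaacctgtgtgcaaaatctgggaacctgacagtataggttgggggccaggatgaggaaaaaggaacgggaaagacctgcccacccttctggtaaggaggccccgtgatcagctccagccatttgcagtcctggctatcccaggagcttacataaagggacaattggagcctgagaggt

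**Figure D5:**
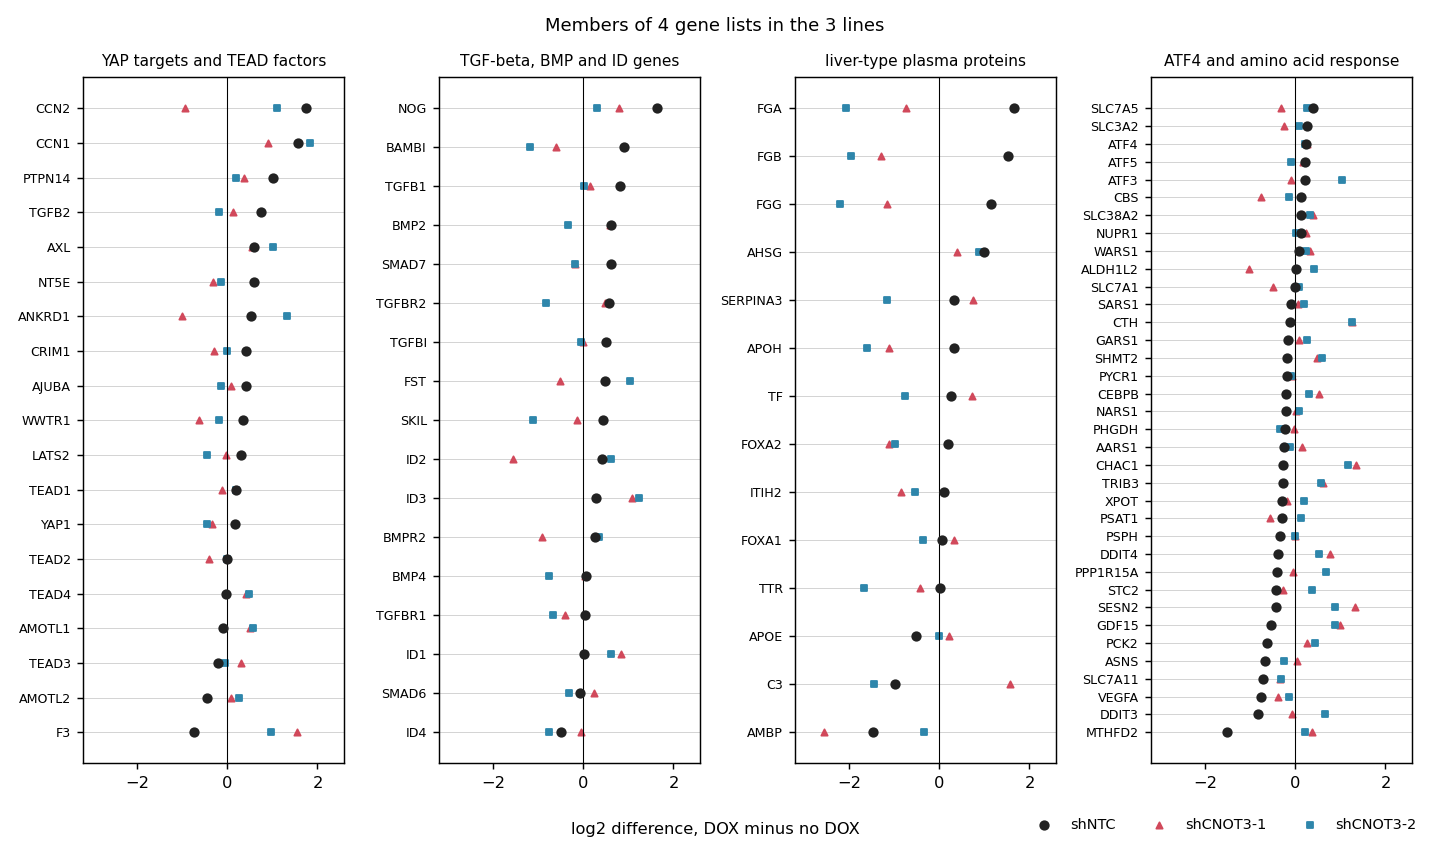
Difference with DOX (log2, x axis) of every kept member of 4 gene lists, sorted by the value in shNTC. Black circles are shNTC, red triangles shCNOT3-1 and blue squares shCNOT3-2. FGA, FGB and FGG are to the right in shNTC and to the left in both targeting lines, and MTHFD2 lies furthest left in the ATF4 list.

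Genes of the ATF4 response were mostly lower in shNTC with DOX. ATF4 is the factor through which cells answer amino acid shortage and mitochondrial stress. Of 36 genes kept, 26 were lower, with a median of -0.23, and the DOX array of shNTC was the lowest of the 6 for 19 (52.8%, against 20.9% of all genes). The targeting lines had medians of 0.04 and 0.22. MTHFD2, described above, was the 1 member past 2-fold. The stress factor DDIT3 (CHOP) read 623 and 350 (-0.83), and asparagine synthetase ASNS 6633 and 4117 (-0.69, with 2.56 at a second, dim probe set).

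The cystine transporter SLC7A11 read 10510 and 6330 (-0.73), with -1.08 and 0.06 at its other probe sets. PCK2, a mitochondrial gluconeogenic enzyme, differed by -0.64, and the secreted stress marker GDF15 by -0.55, where the targeting lines read 1.00 and 0.87. ATF4 mRNA itself read 10785 and 12755 (0.24), and similar differences in shCNOT3-1 (0.26) and shCNOT3-2 (0.22). The amino acid transporters SLC7A5 (0.38) and SLC3A2 (0.27) were higher.

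For the mitochondrial ribosome, the known site of tetracycline action outside bacteria, 53 of 76 genes were lower in shNTC, with a median of -0.14, against 0.13 and 0.16 in the targeting lines. No member passed 2-fold. MRPL10 read 2782 and 1541 (-0.85) and MRPL16 3550 and 2097 (-0.76), and both read higher with DOX in the targeting lines. MRPL43 (0.32) was the highest. The DOX array was the lowest of the 6 for 35 of the 76 genes (46.1%, against 20.9% of all genes). Translation factors and tRNA synthetases of mitochondria were lower in 17 of 25, with a median of -0.07. The elongation factor GFM1 read 6173 and 3890 (-0.67).

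Nuclear-encoded respiratory chain genes had a median of 0.05, with 42 of 68 higher, and the median was -0.01 after quantile normalization. Genes encoded by mitochondrial DNA are not analysed here. Of 12 mitochondrial chaperones and proteases, 9 were lower (median -0.09), but differences were small apart from the protease HTRA2, which read 1228 and 515 (-1.25) and whose second probe set differed by 0.32. HSPD1, HSPE1 and HSPA9, the main matrix chaperones, differed by -0.08, -0.15 and 0.15.

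Cytosolic ribosomal proteins were slightly higher in 47 of 56 genes (median 0.15, 0.04 and 0.02 in the targeting lines), and the DOX array of shNTC was the highest for 42. After quantile normalization the median was 0.03, and the counts under that setting are not given here.

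Proliferation genes were mostly lower with DOX in each of the 3 lines, though not always the same genes. Of 48 DNA replication genes, 38 were lower, with medians of -0.20 in shNTC and -0.31 and -0.26 in the targeting lines, and 25 were lower in all 3 lines, against 13.4% of all genes. The helicase subunits MCM2 (4790 and 2813, -0.77) and MCM5 (2872 and 1762, -0.70) and thymidine kinase TK1 (-0.77, with 0.02 at its second probe set) had the largest differences. Of 40 mitosis genes, 30 were lower in shNTC, and 26 and 31 in the targeting lines (median -0.22, and -0.12 and -0.17). Only 12 of the 40 were lower in all 3 lines. The array of shNTC with DOX was the lowest for 19 (47.5%, against 20.9% of all genes). The kinetochore subunits SPC25 and NDC80 differed by -0.89 and -0.62, while TOP2A and MKI67 differed by 0.12 and 0.13. No member of either list passed 2-fold.

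Of 13 small RNA genes, 9 were higher with a median of 0.04. DICER1 was the exception in size. It read 1135 without DOX and 2586 with it (1.19), against 1146 to 1803 on the other 4 arrays, and 3 other bright probe sets differed by 1.06, 1.14 and 0.17. The argonautes AGO1 to AGO4 differed by 0.02 to 0.46, DROSHA by -0.30 and the export factor XPO5 by -0.21. In the targeting lines, which also express a hairpin with DOX, DICER1 differed by 0.11 and 0.62. The CCR4-NOT subunits other than CNOT3 lay between -0.55 (CNOT6) and 0.45 (CNOT1, the scaffold).

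Cholesterol synthesis genes were higher in 13 of 16 (median 0.21, and 0.47 and 0.05 in the targeting lines). MVD was followed by SC5D (2346 and 3647, 0.64), MSMO1 (6381 and 9411, 0.56) and HMGCS1 (2097 and 2943, 0.49). For SC5D and MSMO1 the 3 arrays with DOX were above the 3 without it, in all lines. HSD17B7 and PMVK differed by -0.07 and -0.13. Among 13 matrix metalloproteinase and inhibitor genes 11 were higher (median 0.26), with TIMP1 at 5721 and 7495 (0.39), and MMP16, at 100 and 26.5, 2-fold lower.

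Inflammatory genes differed in direction. Of 26 cytokines and NF-kB targets, 16 were lower (median -0.10, against 0.12 and 0.43). Besides CCL20, IL6 read 105 and 51.0 (-1.03), and the feedback inhibitor NFKBIE 305 and 189 (-0.69). CCL2, the monocyte chemokine, was higher, at 1986 and 4151 (1.06), with 516 and 2701 in the targeting lines with DOX. CXCL8 and NFKBIA differed by -0.14 and -0.05. The p53 targets had a median of -0.02 in shNTC (0.01 with array medians set equal) and 0.43 and 0.71 in the targeting lines, where CDKN1A, the CDK inhibitor p21, differed by 1.30 and 0.99 against -0.10 in shNTC. MDM2 differed by -1.10, but its probe sets disagreed, and their mean differed by 0.32. Of the hypoxia-responsive genes ADM was 2-fold higher and NDRG1 (1759 and 662, -1.41) 2-fold lower, with 11 of 17 higher and a median of 0.16.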

How the data were processed

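RNA of 6 A549 cultures was hybridised to Affymetrix arrays, 1 per line and DOX state, from 500 ng of RNA per the labels. The authors deposited linear intensity values per probe set. Per the submitters' processing notes MAS5 was used, with settings not given in the sources used here. Of 54675 probe sets, 62 were controls, 41097 had 1 gene in the platform annotation, 1801 several and 11777 were not listed. Symbols of 41043 were updated to RefSeq.

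Intensities were converted to log2 with 1 added, so that differences of the dimmest genes are understated, and the difference within each line was computed with Python 3.11.15 and pandas 2.3.3. The steps were tested on simulated data. A difference of 2-fold was counted as large. No test was run, as there was 1 array per line and state. The number of arrays limits the precision.

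Members, groups and 42 gene lists were chosen with earlier results of these data known. Genes named are the CCR4-NOT subunits, the 12 highest and 12 lowest in shNTC, the same among bright genes whose probe sets past the filter had 1 direction, the 8 highest and 8 lowest over the 3 lines, and up to 5 members of a list, or all where a list of 20 or fewer mattered. Others are named after their values were seen. Alternatives changed the added constant, filter, probe set choice and scaling.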

Additional observations from a re-analysis of the deposited data

Results flagged for a closer look

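In 9 of 12569 genes, the shNTC difference was at least 2-fold one way and both targeting lines at least 2-fold the other way. Of the 9, 7 were lower in shNTC and 2 higher. The same count for another line set against the remaining lines is not given here. None of these differences between lines was tested, since each rests on 1 array per line and state. CCL20 differed by -3.27 in shNTC, and by 2.31 and 4.64 in shCNOT3-1 and shCNOT3-2. IL6, the other cytokine, differed by -1.03, 1.86 and 1.43. MEGF6 differed by -2.73, 1.19 and 1.30. Both are dim, with IL6 at 51.0 to 255 and MEGF6 at 11.4 to 194 over the arrays. The receptor phosphatase PTPRH differed by -1.64, 1.26 and 1.01, and FAM221A by -1.56, 1.25 and 1.03. CDA, cytidine deaminase, differed by -1.15, 1.71 and 1.10, and CYP4B1, a cytochrome P450, by -1.13, 1.12 and 1.22. The 2 genes in the opposite sense were fibrinogen chains: FGB differed by 1.53, -1.29 and -1.98, and FGG by 1.15, -1.17 and -2.20.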

How the results depend on the processing

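No paired analysis was possible because the shNTC difference rests on 1 array a side and the labels give no replicate numbers. The 3 lines do form pairs by line, but a fit of their common difference would take in the CNOT3 knockdown of 2 of them and was not run. Counts moved most with the filter on dim genes. With a mean log2 of at least 7, 101 genes were 2-fold higher and 101 lower in shNTC, 1 and 1 in all 3 lines, 26 and 47 in shNTC with both targeting lines under 0.5. The DOX array alone stood apart in 43 higher and 63 lower genes, and the array without DOX alone in 34 and 6. Without a filter these counts were 1770 and 1771, 114 and 68, 227 and 236, 546 and 649, and 578 and 487. Genes 2-fold in all 3 lines numbered 5 higher and 4 lower with 16 added before log2, and 4 and 1 with all probe sets of a gene averaged. The other counts stayed within 1.5 times under these 2 settings, and all 10 did so with nothing added, quantile normalization or equal array medians. MUC5AC read -1.10, and 0.27 with 16 added, where another of its probe sets became the brightest. MDM2 read -1.10, and 0.32 with its probe sets averaged. Averaging probe sets, dim ones included, changed the sign of 38 of 298 named gene differences, among them ASNS (0.94), AXL (-0.56), TGFB1 (-0.04) and COMMD10 (0.42). Of the 269 recomputed list medians 256 moved by at most 0.1. With probe sets averaged, 9 moved further: TGF-beta genes to 0.27, liver-type proteins to 0.33, matrix metalloproteinases to 0.37, fatty acid synthesis to 0.35, CCR4-NOT to 0.07, interferon genes to 0.00, glycolysis to -0.01, xenobiotic metabolism to -0.11 and the BCL2 family to -0.27. The others were mucins (-0.11) with 16 added, epithelial, mesenchymal and contractile genes (0.16) with 16 added or no filter, and cytosolic ribosome (0.03) under quantile normalization. Dim signal limits most single genes under an intensity of about 500.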

Other observations

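Some groups outside the comparisons above also held values in shNTC. Interferon-stimulated genes were lower in 15 of 25 (median -0.15, against 0.21 and 0.23 in the targeting lines), with XAF1 at 102 and 17.6, IRF7 at 364 and 162 and OAS1 at 1839 and 1047, while RIGI read 329 and 516. Of 27 immediate early genes 19 were higher (median 0.15), led by JUN (1416 and 2718, 0.94, with 0.26 to 0.63 at its other bright probe sets) and JUNB (0.92). JUN read 1281 and 1556 (shCNOT3-1) and 1241 and 2457 (shCNOT3-2) in the targeting lines, so that all 3 arrays with DOX were above the 3 without it.

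ABCB1, the drug efflux pump P-glycoprotein, read 210 without DOX and 514 with it (1.29) in shNTC, and 137 to 215 on the other 4 arrays. Of 30 NRF2 targets 18 were lower (median -0.06), with ALDH3A1 the 1 member past 2-fold. SLPI and LCN2, secreted airway defence proteins, read 2182 and 1099 (-0.99) and 318 and 165 (-0.94). Expressed long non-coding RNAs were lower in 241 of 401 (median -0.13), with 13 of the 401 at least 2-fold higher and 27 lower. Over all genes kept the 2-fold shares were 1.76% higher and 2.12% lower. Dim genes passed 2-fold more often, and the part of brightness in these counts was not tested. The 318 zinc finger genes had a median of 0.03.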
